A study of Mus musculus with 20 samples.

Results

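The core autophagy genes are 34 genes of the pathway by which a cell wraps part of its own contents in a double membrane, the autophagosome, and degrades them in lysosomes. They were taken by gene symbol from a written list, out of 54325 genes in each of the authors' deposited tables. The list was chosen with earlier results of these data known. All 34 were present and had an adjusted p-value on both diets. By step they are 5 initiation genes, 6 nucleation genes, 4 genes of lipid supply and of the effectors of phosphatidylinositol 3-phosphate (PI3P), 8 conjugation genes, 5 genes of the ATG8 family, 5 cargo receptors and 1 transcriptional regulator, Tfeb.

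Autophagosome formation begins when the ULK kinase complex is released from inhibition by MTORC1, the nutrient-sensing kinase complex. The kinase complex around BECN1 and PIK3C3 then makes PI3P on the growing membrane, ATG9A vesicles and ATG2 proteins bring lipid, and WIPI proteins read the PI3P. Ubiquitin-like conjugation attaches the ATG8 proteins (LC3 and GABARAP) to the membrane, and receptors such as p62, the product of Sqstm1, tether cargo to them. In hepatocytes the pathway supplies amino acids during fasting and removes lipid droplets and worn mitochondria, and p62 protein is itself degraded by it.

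The livers came from C57BL/6 mice, and their mRNA was sequenced. There were 4 groups: mice on a diet without methionine and choline (MCD; disease state labelled NASH, non-alcoholic steatohepatitis) with an antibody against ACBP/DBI, the same diet with control IgG, regular chow (labelled healthy) with anti-ACBP, and chow with IgG. ACBP, acyl-CoA binding protein, is an acyl-CoA carrier that cells also release, and the series title places its neutralization beside autophagy-dependent organ protection. The labels list 5 samples in each group and give no age, sex, dose or duration. Single-read values show 5 libraries behind each MCD mean and 4 behind each chow mean, and which chow samples are left out is not known here. Column totals were 39398190 normalized counts in MCD anti-ACBP, 34621779 in MCD IgG, 35093280 in chow anti-ACBP and 38600264 in chow IgG. Mean normalized counts and log2 fold changes of the antibody, with their standard errors (SE), are those of the authors' deposited tables, 1 per diet. Levels scaled to column totals and fold changes given relative to column totals were computed from them. The tables give group means and no values per library, so whether single livers overlap between groups cannot be told. Nothing in the labels says how the livers of a group relate, so the p-values measure the spread between these samples.

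Levels differed widely between members. Mean normalized counts on MCD ran from 154 for Atg10, an E2-like conjugating enzyme, to 36129 for Sqstm1, and on chow from 97.0 to 16581 for the same genes. Per kilobase of exon, in CPM (mean counts scaled to a column total of 1000000), the highest members were Sqstm1, Gabarapl1, Gabarap and Bnip3. The level of Sqstm1 on this scale was 127 in MCD anti-ACBP livers, 311 in MCD IgG, 116 in chow anti-ACBP and 128 in chow IgG. For Gabarapl1, an ATG8 protein of the GABARAP group, it was 171, 164, 182 and 197 in the same order of groups. In the MCD IgG livers Sqstm1 was the highest of the 34 per length, and in the other groups Gabarapl1 was.

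**Figure D1:**
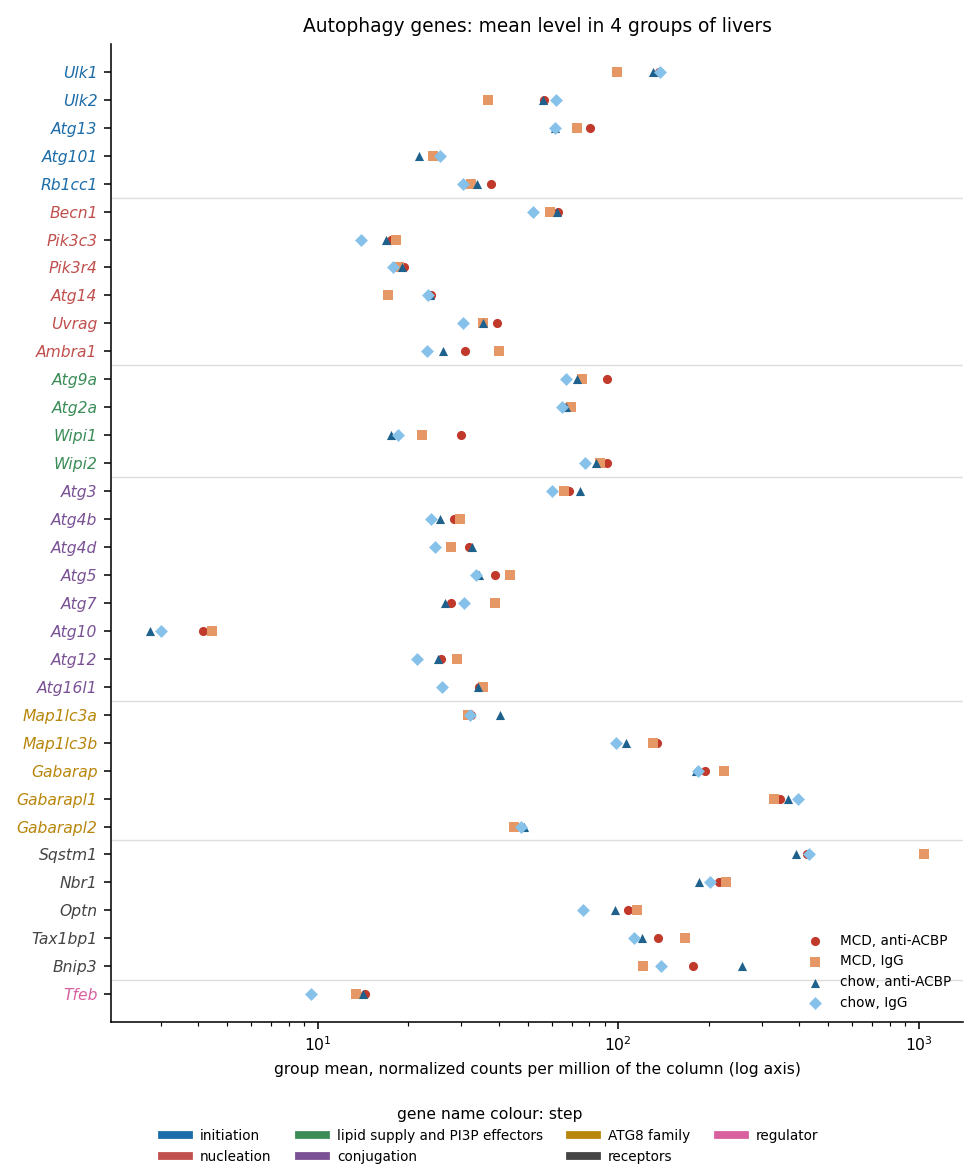
Mean level of each of the 34 genes (rows, ordered and coloured by step) in the 4 groups, as CPM on a log axis: red circles MCD anti-ACBP, orange squares MCD IgG, dark blue triangles chow anti-ACBP, light blue diamonds chow IgG. Points are the authors' group means and carry no error. Sqstm1 lies at 425 CPM in MCD anti-ACBP, 1044 in MCD IgG, 389 in chow anti-ACBP and 429.6 in chow IgG, while Ulk1, Ulk2 and Atg14 are lowest in MCD IgG.

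On the MCD diet, most genes of initiation, nucleation and lipid supply were higher with anti-ACBP than with IgG, and the receptor gene Sqstm1 was lower. At an adjusted p under 0.05 (the authors' DESeq2 Wald test with Benjamini-Hochberg adjustment), 13 of the 34 members rose and 2, Sqstm1 and Atg7, fell. Of all 20265 genes tested, 30.9% were called, 14.7% as higher and 16.2% as lower. Many of these genes were tested on MCD only, while all members were tested on both diets. Adjusted over the 14607 genes tested on both diets, 5693 were called on MCD, 2996 as higher and 2697 as lower. The share called among such genes was thus larger, and the members' calls stayed the same. The rises covered 3 of 5 initiation genes, 4 of 6 nucleation genes and 3 of 4 genes of lipid supply and PI3P effectors. They covered 2 of 8 conjugation genes, 0 of 5 ATG8 genes and 1 of 5 receptors. The median log2 fold change of the members was 0.22, against 0.018 over all genes tested, and 29 of 34 were above 0. Scaled to column totals instead, which shifts the log2 fold change of each gene on MCD by -0.19, the median was 0.033 and 20 members were above 0. On that scale 6 members were called higher (Ulk1, Ulk2, Atg14, Atg9a, Wipi1 and Bnip3) and 4 lower (Sqstm1, Atg7, Gabarap and Tax1bp1). All genes then split into 1398 higher and 5468 lower, where the authors' size factors gave 2973 and 3288.

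On chow fewer members were called, and more of them fell than rose. Of the 34 members 1, Bnip3, rose and 5 fell (Ulk2, Atg101, Gabarapl1, Sqstm1 and Nbr1), where 12.0% of 14618 genes were called, 5.58% as higher and 6.46% as lower. The median of the members was -0.033 against 0.0042 over all genes tested, and 13 were above 0. Relative to column totals, which shifts chow fold changes by 0.14, the median was 0.10. On that scale 7 members were called higher (Pik3c3, Atg3, Atg4d, Atg16l1, Optn, Bnip3 and Tfeb) and 0 lower, and all genes split into 2605 higher and 533 lower, where the size factors gave 816 and 945. With a t distribution in place of the normal the DESeq2 statistics on chow gave 0 calls over all genes, 0 of them members, while 2238 genes and 8 members had an unadjusted p under 0.05. By call, Bnip3 rose on both diets, Sqstm1 fell on both, Ulk2 rose on MCD and fell on chow, and 16 members were called on neither.

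**Figure D2:**
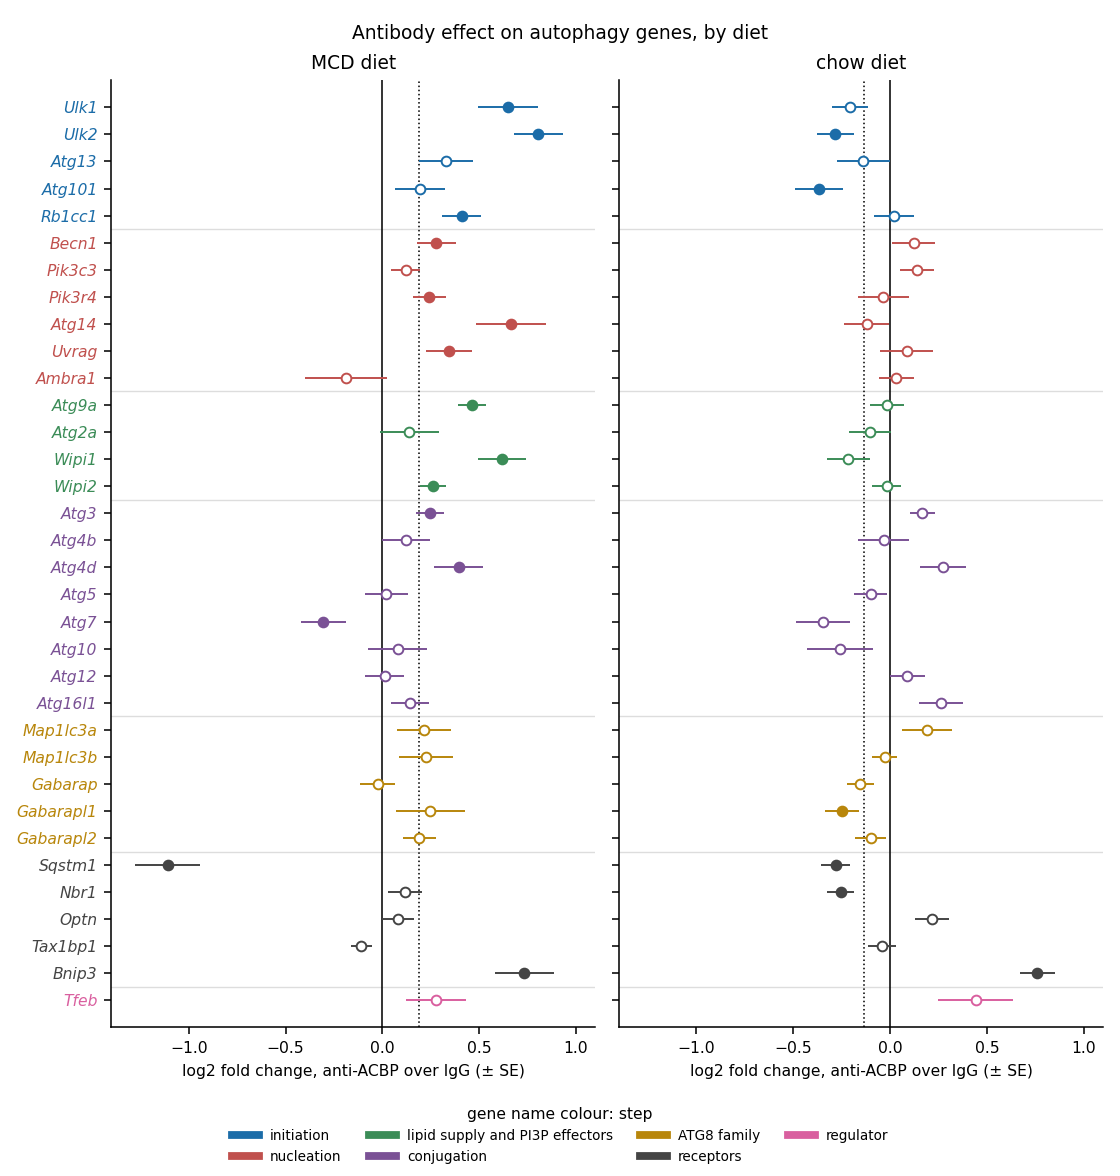
Log2 fold change of anti-ACBP over IgG for each member, on MCD (left panel) and chow (right panel), from the authors' deposited tables. Bars are ± 1 SE, filled points passed an adjusted p of 0.05, and the dotted line marks where a gene would stand at 0 relative to column totals. On MCD 13 filled points lie right of 0 and 2 left of it, and on chow 1 lies right and 5 left.

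Markers of several cell types moved in the same comparison on MCD. The hepatocyte gene Alb had means of 3118589 in MCD anti-ACBP, 2348593 in MCD IgG, 2329414 in chow anti-ACBP and 1971737 in chow IgG. Of 9 hepatocyte markers measured, 7 rose and 1 fell on MCD (summed means 4459233 with anti-ACBP and 3504356 with IgG), and 0 were called on chow (3316752 with anti-ACBP against 3055432 with IgG). Of 12 macrophage markers 8 fell and 1 rose on MCD, with summed means of 8791 with anti-ACBP against 26937 with IgG, and 0 of 11 were called on chow (6115 with anti-ACBP against 7109 with IgG over all 12). All 8 stellate cell markers fell on MCD (5821 with anti-ACBP against 13028 with IgG), and on chow 3 fell and 1 rose (2607 with anti-ACBP against 2966 with IgG). Cholangiocyte markers gave 2 falls of 5 (2078 with anti-ACBP against 3796 with IgG), endothelial markers 1 rise and 1 fall of 5 (5262 with anti-ACBP against 5230 with IgG), and lymphocyte markers 0 calls of 5 (109 with anti-ACBP against 120 with IgG) on MCD. On chow 1 of 5 cholangiocyte markers, Sox9, fell (log2 fold change -0.98 ± 0.318 SE, DESeq2 adjusted p = 0.0237), and the summed means were 1127 with anti-ACBP against 1601 with IgG. Endothelial markers gave 0 calls of 5 on chow (4111 with anti-ACBP against 3530 with IgG), and lymphocyte markers 0 calls of 2 tested (68.5 with anti-ACBP against 51.9 with IgG over all 5). None of these markers had a mean of 0. In whole liver, fewer cells of a type and less RNA per cell cannot be told apart, and the part of these shifts in the values of Sqstm1, the ULK genes or the other members was not tested.

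The initiation genes encode the ULK kinases and the scaffold proteins around them. Ulk2 averaged 2225 normalized counts in MCD anti-ACBP livers, against 1273 in MCD IgG livers, and 1969 in chow anti-ACBP livers, against 2397 in chow IgG livers. It rose by 0.80 ± 0.126 on MCD on the log2 scale (DESeq2 adjusted p = 4.21e-09), and on chow its log2 fold change was -0.28 ± 0.0955 (adjusted p = 0.0306). Its MCD IgG mean was the lowest of the 4, also in CPM. Its paralog Ulk1 averaged 5383 in MCD anti-ACBP against 3432 in MCD IgG, a rise of 0.65 ± 0.156 (adjusted p = 2.40e-04). On chow Ulk1 stood at 4592 with anti-ACBP against 5307 with IgG, and its log2 fold change of -0.21 ± 0.0934 did not pass (adjusted p = 0.136). Rb1cc1, the large scaffold also called FIP200, rose on MCD by 0.41 ± 0.103 (1487 normalized counts with anti-ACBP against 1120 with IgG, adjusted p = 5.22e-04) and stood at 0.019 ± 0.104 on chow. Atg101, which stabilizes ATG13, fell on chow, to 761 normalized counts with anti-ACBP against 981 with IgG (-0.37 ± 0.122, adjusted p = 0.0286). On MCD its log2 fold change was 0.19 ± 0.129. Atg13, the adaptor of the complex, passed on neither diet, with log2 fold changes of 0.33 ± 0.141 on MCD and -0.14 ± 0.139 on chow.

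The windows around the starts of Ulk1 and Ulk2 are printed because these paralogs rose together on MCD. They run from 250 bases before to 50 bases after the start, on the minus strand of the mouse build GRCm38.p6 as RefSeq gives them, at chr5:110810032-110810331 for Ulk1 and chr11:61855043-61855342 for Ulk2. Capitals mark a match to TGACNNNGC, the core of the antioxidant response element that the stress factor NRF2 binds, which begins 17 bases before the start of Ulk2. Of the motifs searched on both strands, none matched in the Ulk1 window.
Ulk1: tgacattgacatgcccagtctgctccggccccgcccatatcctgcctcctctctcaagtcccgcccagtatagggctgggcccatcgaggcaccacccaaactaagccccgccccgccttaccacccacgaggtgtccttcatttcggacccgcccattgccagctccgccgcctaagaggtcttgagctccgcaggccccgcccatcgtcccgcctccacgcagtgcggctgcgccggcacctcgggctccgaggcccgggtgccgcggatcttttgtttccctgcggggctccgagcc
Ulk2: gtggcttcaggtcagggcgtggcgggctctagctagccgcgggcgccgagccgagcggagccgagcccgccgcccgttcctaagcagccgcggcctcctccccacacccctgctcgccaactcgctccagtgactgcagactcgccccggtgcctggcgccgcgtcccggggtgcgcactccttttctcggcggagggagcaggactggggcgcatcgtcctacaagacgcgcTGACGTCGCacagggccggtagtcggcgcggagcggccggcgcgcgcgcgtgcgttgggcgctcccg

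The nucleation genes encode the PI3P-making lipid kinase complex and its partners. Atg14, the subunit that directs the complex to autophagosomes, averaged 940 normalized counts in MCD anti-ACBP livers, against 592 in MCD IgG livers. This was a rise of 0.67 ± 0.181 (DESeq2 adjusted p = 0.00146), and on chow the means were 826 with anti-ACBP against 898 with IgG (-0.12 ± 0.116). As with Ulk1 and Ulk2, the MCD IgG mean was the lowest of the 4 in CPM. Uvrag, which replaces ATG14 in the complex of the endosomal route, rose on MCD by 0.34 ± 0.120 (1559 with anti-ACBP against 1229 with IgG, adjusted p = 0.0168). Becn1, the shared scaffold, rose there by 0.28 ± 0.10 (2487 with anti-ACBP against 2050 with IgG, adjusted p = 0.0206). Pik3r4, the regulatory kinase subunit, rose by 0.24 ± 0.0844 (761 with anti-ACBP against 643 with IgG, adjusted p = 0.0169). These 3 smaller rises were not called at an adjusted p of 0.01, relative to column totals or with a t distribution. The catalytic subunit Pik3c3 and the regulator Ambra1 did not pass on MCD, at 0.12 ± 0.0753 and -0.19 ± 0.212, and no nucleation gene was called on chow, where the 6 log2 fold changes ran from -0.12 for Atg14 to 0.14 for Pik3c3, with Becn1 at 0.12 ± 0.11, Uvrag at 0.085 ± 0.135 and Pik3r4 at -0.035 ± 0.13.

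Among the genes of lipid supply and PI3P effectors, Atg9a, the lipid scramblase whose vesicles seed the membrane, averaged 3607 normalized counts in MCD anti-ACBP livers, against 2619 in MCD IgG livers. Its rise of 0.46 ± 0.0720 had the smallest SE relative to its size among the 13 rises (DESeq2 adjusted p = 3.08e-09). Wipi1, a PI3P reader, rose by 0.62 ± 0.123 on MCD (1181 with anti-ACBP against 769 with IgG, adjusted p = 5.55e-06), and Wipi2, which recruits ATG16L1, by 0.26 ± 0.0681 (3609 with anti-ACBP against 3009 with IgG, adjusted p = 7.98e-04). The lipid transfer gene Atg2a did not pass, at 0.14 ± 0.152. On chow no member of this step was called: Wipi1 had means of 616 with anti-ACBP against 716 with IgG (-0.22 ± 0.111, adjusted p = 0.217), and Atg9a and Wipi2 had log2 fold changes of -0.017 ± 0.0878 and -0.019 ± 0.0757.

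The conjugation genes, the enzymes that load ATG8 proteins onto the membrane, had 3 calls of 8 on MCD. Of all genes tested on MCD 30.9% were called, so the count was near that share. There the E2-like enzyme Atg3 rose by 0.25 ± 0.0708 (2701 normalized counts with anti-ACBP against 2277 with IgG, DESeq2 adjusted p = 0.00275). The protease gene Atg4d rose by 0.40 ± 0.126 (1259 with anti-ACBP against 957 with IgG, adjusted p = 0.00800). The E1-like enzyme Atg7, which activates both ATG12 and the ATG8 proteins, fell to 1091 with anti-ACBP against 1348 with IgG (-0.31 ± 0.116, adjusted p = 0.0302). Atg7 was the only conjugation gene called as lower on MCD. On chow Atg7 had a log2 fold change of similar size, -0.35 ± 0.139 (932 with anti-ACBP against 1185 with IgG), that did not pass (adjusted p = 0.0858). The remaining conjugation genes, Atg4b, Atg5, Atg10, Atg12 and Atg16l1, were called on neither diet, with log2 fold changes between 0.011 and 0.14 on MCD. On chow Atg3, Atg4d and Atg16l1 stood at 0.17 ± 0.0656, 0.27 ± 0.117 and 0.26 ± 0.115 (adjusted p = 0.0796, 0.117 and 0.127), short of the threshold, and were among the genes called there relative to column totals.

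The ATG8 family, the proteins that coat the autophagosome and whose LC3 forms are widely used to count it, did not pass on MCD for any of its 5 genes. The log2 fold changes there were 0.21 ± 0.141 for Map1lc3a, 0.22 ± 0.139 for Map1lc3b, -0.025 ± 0.0884 for Gabarap, 0.25 ± 0.178 for Gabarapl1 and 0.19 ± 0.0837 for Gabarapl2. On chow Gabarapl1 fell, to 12882 normalized counts with anti-ACBP against 15312 with IgG (-0.25 ± 0.0884, DESeq2 adjusted p = 0.0430). The other family members were between -0.15 and 0.19 there. Map1lc3b, the LC3 gene most often assayed, averaged 5277 normalized counts in MCD anti-ACBP livers, against 4518 in MCD IgG livers, and 3730 in chow anti-ACBP livers, against 3805 in chow IgG livers. For Map1lc3b the 95% interval of the fold change ran from -0.0495 to 0.497 on MCD and from -0.152 to 0.0951 on chow.

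The receptors held the largest fall of the 34 on MCD and the largest rise on chow. Sqstm1 averaged 16761 normalized counts in MCD anti-ACBP livers, against 36129 in MCD IgG livers, which is -1.11 ± 0.168 on the log2 scale (DESeq2 adjusted p = 9.97e-10). On chow it averaged 13640 with anti-ACBP against 16581 with IgG, which is -0.28 ± 0.0743 (adjusted p = 0.00310). Its CPM was 425 in MCD anti-ACBP, 1044 in MCD IgG, 389 in chow anti-ACBP and 429.6 in chow IgG, so the MCD IgG mean was the highest. These means carry no spread, and MCD was not tested against chow. With IgG the log2 ratio of MCD over chow was 1.28 in CPM and 0.89 relative to the median gene. Bnip3, a mitochondrial receptor for mitophagy, averaged 6973 in MCD anti-ACBP against 4197 in MCD IgG, a rise of 0.73 ± 0.152 (adjusted p = 1.55e-05). On chow its means were 9052 with anti-ACBP and 5344 with IgG, a rise of 0.76 ± 0.0925 (adjusted p = 1.30e-13). Bnip3 was the only member called as higher on both diets. Nbr1, a receptor that works with p62, fell on chow (6531 with anti-ACBP against 7794 with IgG, -0.25 ± 0.0701, adjusted p = 0.00487) and stood at 0.12 ± 0.0866 on MCD. Optn and Tax1bp1, which serve damaged mitochondria and protein aggregates, were called on neither diet. Tax1bp1 had log2 fold changes of -0.11 ± 0.0540 on MCD and -0.043 ± 0.0714 on chow, and Optn 0.081 ± 0.0811 and 0.22 ± 0.0899 (adjusted p = 0.102 on chow). Tfeb, which switches on lysosomal and autophagy genes, had means of 564 normalized counts with anti-ACBP against 465 with IgG on MCD, and of 496 with anti-ACBP against 366 with IgG on chow. Its log2 fold changes of 0.28 ± 0.155 and 0.44 ± 0.194 did not pass (adjusted p = 0.169 on MCD and 0.129 on chow).

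The start windows of Sqstm1 and Bnip3 are printed because Sqstm1 had the largest fall on MCD and Bnip3 rose on both diets. In the same RefSeq build they lie on the minus strand, at chr11:50210771-50211070 for Sqstm1 and chr7:138909457-138909756 for Bnip3. Capitals mark the E-box CACGTG, beginning 108 bases before the start of Bnip3. It also contains ACGTG, the core of the hypoxia response element, on both strands. The Sqstm1 window held no match to the motifs searched.
Sqstm1: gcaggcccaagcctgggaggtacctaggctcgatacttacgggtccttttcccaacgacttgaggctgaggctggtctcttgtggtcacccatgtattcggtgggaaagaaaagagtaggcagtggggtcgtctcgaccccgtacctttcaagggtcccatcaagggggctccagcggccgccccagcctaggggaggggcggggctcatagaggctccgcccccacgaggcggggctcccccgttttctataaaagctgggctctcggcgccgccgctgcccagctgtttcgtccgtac
Bnip3: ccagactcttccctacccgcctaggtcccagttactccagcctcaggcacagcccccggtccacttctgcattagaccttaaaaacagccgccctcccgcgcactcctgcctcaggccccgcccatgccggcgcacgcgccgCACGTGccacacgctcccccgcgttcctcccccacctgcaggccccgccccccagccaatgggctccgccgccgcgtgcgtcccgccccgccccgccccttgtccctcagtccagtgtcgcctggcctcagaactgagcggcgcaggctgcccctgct

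A RefSeq window was at hand for 28 of the 34 members. CACGTG, the core that TFEB and related factors bind, was found in 5 of the 28 (17.9%: Atg14, Atg3, Atg5, Atg7 and Bnip3), against 8.09% of 27025 genes. Its 10-base extension in lysosomal genes, the CLEAR element, was found in 0 of 28, against 0.370% of all. TGACNNNGC was found in 4 of 28 (14.3%: Atg13, Map1lc3b, Tax1bp1 and Ulk2), against 3781 of the 27025 genes. GTAAACA, the FOXO site, was found in 0 of 28, against 4.05%. ACGTG, which every CACGTG contains, was found in 13 of 28 (46.4%), against 21.8%. Of the members with CACGTG, Atg14, Atg3 and Bnip3 were called higher on MCD, Atg7 was called lower and Atg5 was not called. These are matches of letters. Binding was not measured, and the relation of the matches to the fold changes was not tested.

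The antibody effects on both diets were then set against each other gene by gene. The fold change on chow was taken from that on MCD, divided by the SE of this difference, and tested with a normal p and Benjamini-Hochberg adjustment. It passed for 10 of 34 members, 9 with a higher value on MCD and 1 with a lower one. Over 14607 genes 23.2% passed, 12.6% with the value on MCD above and 10.6% with it below. Initiation carried 4 of these 10 (Ulk1, Ulk2, Atg101 and Rb1cc1), at 0.86 ± 0.182, 1.09 ± 0.158, 0.56 ± 0.178 and 0.39 ± 0.146. Atg14 was the only nucleation gene, at 0.79 ± 0.215 (adjusted p = 0.00251). Lipid supply gave 3, with Atg9a at 0.48 ± 0.114, Wipi1 at 0.83 ± 0.166 and Wipi2 at 0.28 ± 0.102. Receptors gave Sqstm1 at -0.83 ± 0.184 (adjusted p = 1.17e-04) and Nbr1 at 0.37 ± 0.111. No conjugation gene and no ATG8 gene passed: Gabarapl1 and Gabarapl2 stood at 0.50 ± 0.199 and 0.29 ± 0.116, just outside (adjusted p = 0.0522 and 0.0527).

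For Bnip3 the difference was -0.028, with a 95% interval from -0.38 to 0.32, and for Atg7 it was 0.041, from -0.31 to 0.40. Becn1, Pik3r4, Uvrag, Atg3, Atg4d and Bnip3, which rose on MCD, did not pass the test of the difference. Relative to column totals, a shift of both tables together, the differences of Ulk1, Ulk2 and Wipi1 stayed higher and that of Sqstm1 stayed lower, and the call was lost for Atg101, Rb1cc1, Atg14, Atg9a and Nbr1. The sign of Wipi2 turned there, to -0.044, and 7 other members were called lower (Pik3c3, Ambra1, Atg3, Atg12, Atg16l1, Optn and Tax1bp1), with a split over all genes of 717 higher and 4721 lower, where the size factors gave 1847 and 1547.

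**Figure D3:**
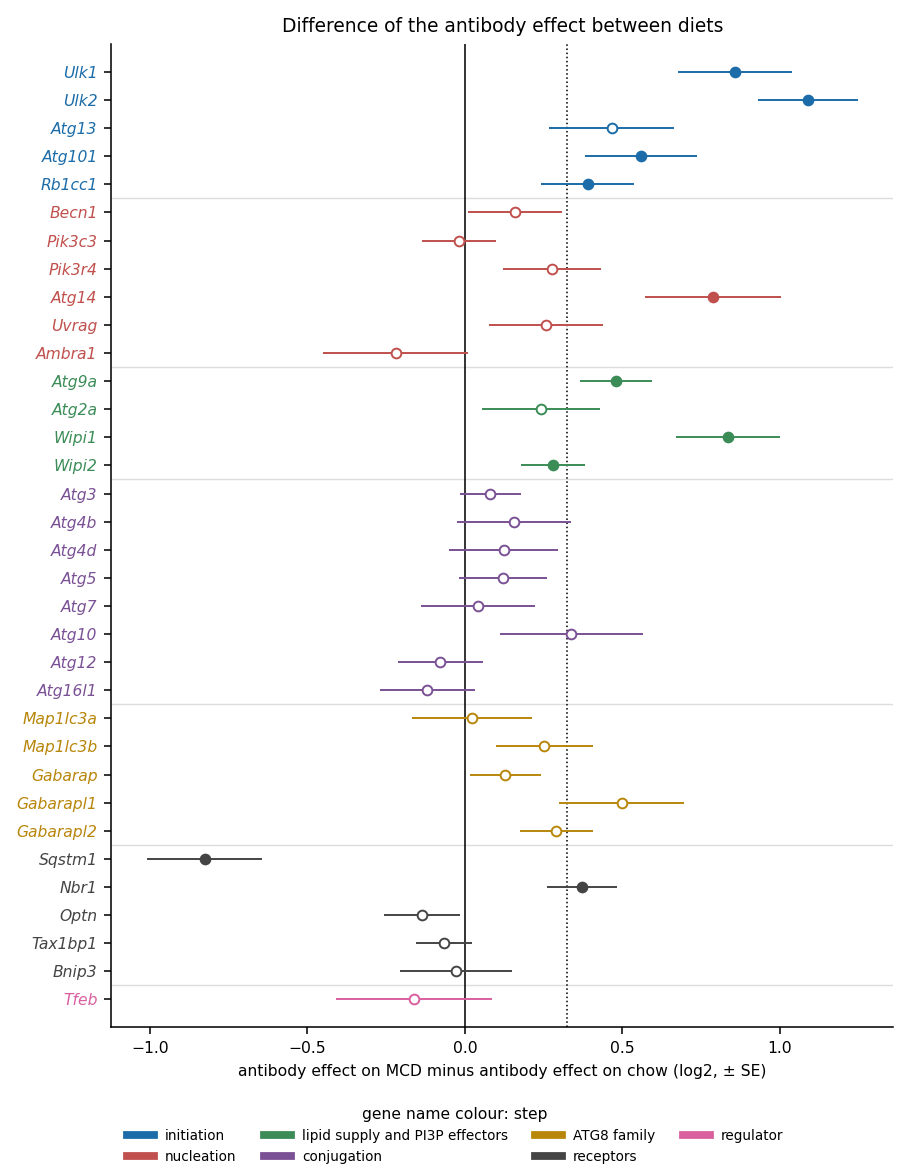
Antibody effect on MCD minus antibody effect on chow for each member, on the log2 scale, with bars of ± 1 SE. Filled points passed an adjusted p of 0.05, and the dotted line marks 0 relative to column totals. Ulk2 lies farthest right at 1.09 and Sqstm1 farthest left at -0.83.

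The next comparison, of MCD with chow within each antibody, has no test, since both tables were scaled separately and give no spread per group. Ratios of group means in CPM were centred on their median over the 8857 genes that reached a CPM of 5 in each of the 4 groups, 0.13 on the log2 scale for anti-ACBP and 0.39 for IgG. The median over the 34 members was -0.052 with anti-ACBP and -0.19 with IgG, and these became 0.076 and 0.20 without the centring. With anti-ACBP the log2 ratios were 0.0024 for Sqstm1, -0.12 for Ulk2, -0.066 for Ulk1, -0.11 for Atg14, -0.22 for Gabarapl1 and -0.67 for Bnip3. With IgG they were 0.89 for Sqstm1, -1.15 for Ulk2, -0.86 for Ulk1, -0.84 for Atg14, -0.66 for Gabarapl1 and -0.58 for Bnip3. For Wipi1 the ratio was 0.64 with anti-ACBP and -0.13 with IgG. Of the 33 members that reached the CPM minimum, 23 had a ratio nearer 0 with anti-ACBP than with IgG (69.7%), and 10 had one farther from 0, among them Bnip3 and Wipi1. Over all 8857 genes the share nearer 0 with anti-ACBP was 72.7%, and the quartiles of the ratios were -0.14 and 0.16 with anti-ACBP and -0.27 and 0.29 with IgG, so the members' share was near that of all genes.

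Of the 33 members above the CPM limit, 1 was at 0.5 or more and 1 at -0.5 or less with anti-ACBP, where all genes gave 5.26% and 2.89%. With IgG 1 and 5 members passed these limits, where all genes gave 13.8% and 13.6%. The IgG ratio and the antibody effect on MCD use the same MCD IgG libraries, so they are given side by side and are not independent.

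**Figure D4:**
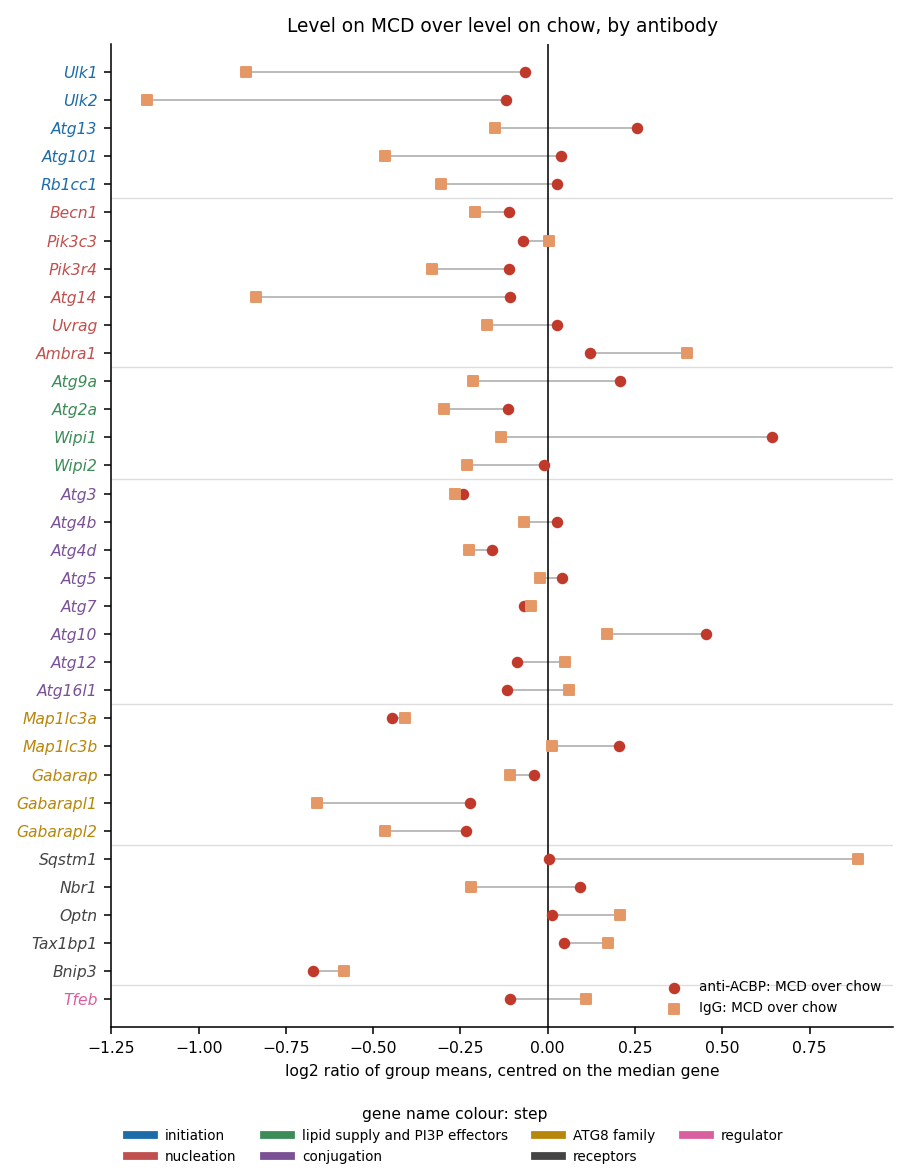
Log2 ratio of the level on MCD over the level on chow for each member, centred on the median gene, for anti-ACBP (red circles) and IgG (orange squares), joined by a line. No error can be given for these ratios of group means. Sqstm1 lies at 0.0024 with anti-ACBP and 0.89 with IgG, and Ulk2 at -0.12 with anti-ACBP and -1.15 with IgG.

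Other genes of the route were examined as written lists. Of 14 further machinery genes 4 rose and 0 fell on MCD, with a median of 0.29. Vmp1, an ER protein needed to release autophagosomes from the ER, rose by 0.62 ± 0.233, and the PI3P reader Wdr45 by 0.55 ± 0.146 (DESeq2 adjusted p = 0.0296 and 9.45e-04). The other 2 were the scramblase gene Tmem41b and the ATG2 paralog Atg2b. On chow Sh3glb1, a BECN1 partner, rose by 0.30 ± 0.0903 and the ATG16L1 paralog Atg16l2 had a log2 fold change of -0.79 ± 0.156, with 581 normalized counts with anti-ACBP against 1003 with IgG (adjusted p = 2.93e-05). The difference between diets for Atg16l2 was 1.16 ± 0.243 (adjusted p = 3.70e-05). Of 14 other receptors 4 rose on MCD, led by the mitochondrial receptor Fkbp8 at 0.44 ± 0.0816 and Calcoco1 at 0.41 ± 0.127, with Sec62 and Ncoa4 below them. The ER-phagy receptor Retreg1 fell on chow, at -0.43 ± 0.117, and was the only one of this list called there. Bnip3l, the paralog of Bnip3, passed on neither diet, at 0.17 ± 0.0944 on MCD and 0.10 ± 0.0999 on chow.

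Of 13 genes for fusion of autophagosomes with lysosomes, 0 passed on MCD by the DESeq2 test, with a median of 0.027 and 1 at an unadjusted p under 0.05 (Vps16, adjusted p = 0.0542). On chow 1 of the 13, the fusion SNARE Stx17, rose by 0.21 ± 0.0730. Taking these 3 lists together, 8 of 41 genes rose and 0 fell on MCD with a median of 0.14, beside 14.7% of all genes called higher. Of the 41, 40 were tested on both diets. Adjusted over the 14607 genes tested on both diets, 2996 were called higher on MCD, a larger share than 14.7%. The difference between the 34 core genes and the 41 others was not tested.

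**Figure D5:**
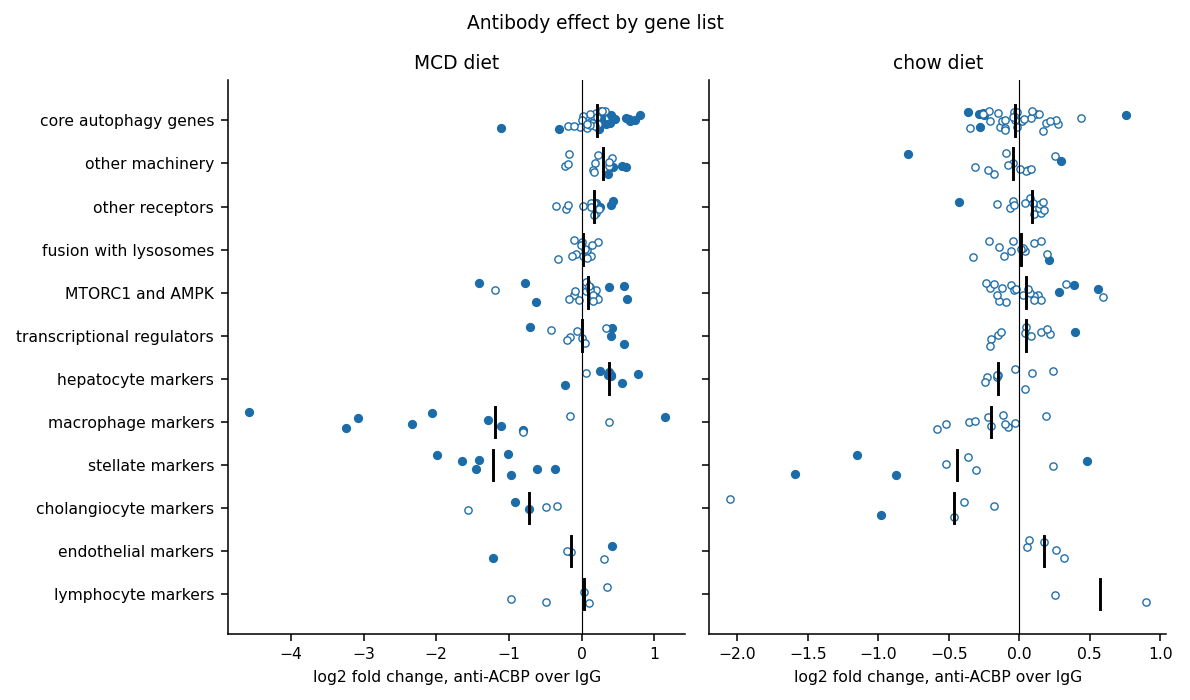
Log2 fold change of anti-ACBP over IgG for each gene (points; filled where the adjusted p was under 0.05) by gene list, on MCD (left) and chow (right), with list medians as black bars. On MCD the median is 0.22 for the core autophagy genes and 0.027 for fusion with lysosomes, and all 8 stellate markers lie below 0.

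Annotated neighbours overlap some members. In the GENCODE vM21 annotation 12 of the 34 share exon bases with another gene, 8 of them over 5% of their own. The share was 43.9% for Becn1 (with Cntd1), 31.8% for Atg9a (with Gm29253 on the same strand), 28.3% for Gabarapl1, 22.3% for Bnip3, 19.3% for Atg4d, 17.6% for Uvrag and 17.3% for Sqstm1 (with Mrnip). The labels call the libraries strand-specific, and the strand setting of the counting is not given in the sources used here. Mrnip had means of 162 and 107 in MCD anti-ACBP and MCD IgG livers, far below Sqstm1 and in the other direction. Cntd1, Kri1 and Gm45187 also moved against their members, Becn1, Atg4d and Uvrag. Other neighbours moved with theirs. Gm29253, which overlaps Atg9a, had means of 50.5 and 33.8 in the same order of groups, and Gm45507, which overlaps Bnip3, 23.7 and 13.7. The part of the overlaps in the members' values was not tested.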

How the data were processed

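Liver mRNA libraries of 4 groups were aligned with HISAT2 2.2.1 to mm39, counted with HTSeq 0.13.5 and compared with DESeq2, per the submitters' processing notes. The authors deposited 1 table per diet. Per the file headers, the deposited signal columns are group means of normalized counts, the authors' fold change column is the log2 of anti-ACBP over IgG and has a standard error beside it, and the deposited p-value columns hold Wald p-values and their Benjamini-Hochberg adjustment. The deposited fold changes end at -5 and 5, and the p-values are rounded to 6 decimals. No values per library were used, so no count model was fitted.

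Adjusted p-values under 0.001 were recomputed from fold change and standard error, which changed 0 calls. CPM is a mean scaled to a column total of 1000000. Exon lengths and overlaps came from GENCODE vM21 (GRCm38), and start windows from RefSeq. Size factors, read from genes seen once, ran from 0.838 to 1.08 on MCD and 0.905 to 1.11 on chow. Python 3.11.15, pandas 2.3.3, numpy 2.4.6, scipy 1.17.1 and matplotlib 3.10.9 were used. Members were named in full where called on either diet or in the difference, and others by range. From other lists the 2 largest rises and falls called per diet were named, and further genes were named after their values were seen. The members and lists were chosen with earlier results of these data known. The hepatocyte list holds 10 genes, of which Tf was not analysed here. Alternatives were another p threshold, column totals, other sets for adjustment, a t distribution, other centring and a pseudocount.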

Additional observations from a re-analysis of the deposited data

Results flagged for a closer look

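For 10 of 34 members the antibody effect differed between diets by the test of the difference itself (normal p, Benjamini-Hochberg adjusted over 14607 genes). Over all these genes 23.2% passed. Of the 10 calls, 4 (Ulk1, Ulk2, Wipi1 and Sqstm1) held under each alternative run. The effect on MCD minus that on chow was 1.09 for Ulk2 (adjusted p = 5.13e-10), 0.86 for Ulk1 (4.74e-05), 0.83 for Wipi1 (1.18e-05) and 0.79 for Atg14 (0.00251). It was 0.56 for Atg101 (adjusted p = 0.0110), 0.48 for Atg9a (3.50e-04), 0.39 for Rb1cc1 (0.0368), 0.37 for Nbr1 (0.00663) and 0.28 for Wipi2 (0.0297). Sqstm1 was the only one with a lower value on MCD, at -0.83 (adjusted p = 1.17e-04).

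For Ulk1, Ulk2, Atg101 and Wipi1 the fold change was above 0 on MCD and below 0 on chow with the authors' size factors and relative to column totals. For Atg14, Atg9a, Wipi2 and Nbr1 it was so only with the size factors: relative to column totals the chow value turned to 0.016 for Atg14, 0.12 for Atg9a and 0.12 for Wipi2, and the MCD value of Nbr1 turned to -0.071. With the size factors the chow values of Atg9a (-0.017 ± 0.0878 SE) and Wipi2 (-0.019 ± 0.0757 SE) lay within 1 SE of 0. Relative to column totals, so did the MCD value of Atg101 (0.0072 ± 0.129 SE). The chow values of Ulk1 (-0.071 ± 0.0934 SE) and Wipi1 (-0.079 ± 0.111 SE) did so on that scale as well. Rb1cc1 was above 0 and Sqstm1 below 0 on both diets under both scalings. Ulk2 was called as a rise on MCD and as a fall on chow, and no other member had opposite calls. The chow call of Ulk2 held under 1 of 5 alternatives. It was lost at an adjusted p of 0.01, relative to column totals, without the filter on low counts and with a t distribution.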

How the results depend on the processing

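Every call of 7 members on MCD (Ulk1, Ulk2, Atg14, Atg9a, Wipi1, Sqstm1 and Bnip3) and of 4 differences (Ulk1, Ulk2, Wipi1 and Sqstm1) held under each alternative run, with adjusted p up to 0.0383 and 0.0124. On chow 0 of 6 calls held under all, and Bnip3 lost its call only with a t distribution (adjusted p = 0.0994). Adjusting over genes tested in both tables changed no call of a member.

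At an adjusted p of 0.01, members called lower were 1 on MCD and 2 on chow (3 called in all on chow). Over all genes chow then gave 1007 calls, 442 higher and 565 lower, and the difference 2144, with 1188 higher and 956 lower. With a t distribution MCD gave 3865 calls (1694 higher, 2171 lower) and 1 member lower, and the difference 2241 calls, 1005 lower. On chow it gave 0 calls in either direction by the DESeq2 statistics, 0 of them members, with 2238 genes at an unadjusted p under 0.05. Without the filter on low counts 3 members were called on chow, 2 of them lower. Limiting the difference to genes at a CPM of 5 or more gave 2193 calls, 733 lower, and called Gabarapl1 (adjusted p = 0.0497). Atg10 has no value there.

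Relative to column totals, MCD gave 1398 higher and 5468 lower (members 6 and 4). Chow gave 3138 calls, 2605 higher and 533 lower (members 7 and 0, with 10 higher and 0 lower at an unadjusted p under 0.05), and the difference 5438, with 717 higher and 4721 lower (members 3 and 8). This scaling shifts every gene alike. On MCD it turned Pik3c3 to -0.066, Atg2a to -0.048, Atg4b to -0.063, Atg5 to -0.17, Atg10 to -0.11, Atg12 to -0.18, Atg16l1 to -0.044, Nbr1 to -0.071 and Optn to -0.11. On chow it turned Pik3r4 to 0.10, Atg14 to 0.016, Atg9a to 0.12, Atg2a to 0.035, Wipi2 to 0.12, Atg4b to 0.11, Atg5 to 0.037, Map1lc3b to 0.11, Gabarapl2 to 0.038 and Tax1bp1 to 0.095. In the difference it turned Becn1 to -0.17, Pik3r4 to -0.048, Uvrag to -0.065, Atg2a to -0.082, Wipi2 to -0.044, Atg3 to -0.24 (adjusted p = 0.0346), Atg4b to -0.17, Atg4d to -0.20, Atg5 to -0.20, Atg7 to -0.28, Map1lc3a to -0.30, Map1lc3b to -0.072, Gabarap to -0.20 and Gabarapl2 to -0.033. Without centring, the median level ratio of the members turned to 0.076 with anti-ACBP and 0.20 with IgG.

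Leaving out libraries in turn was not run, because only group means were used. No paired analysis was possible because the columns are group means and carry no replicate numbers. These are mRNA levels, and autophagic degradation was not measured. SEs of the members ran from 0.0540 to 0.212 on MCD.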

Other observations

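Upstream regulators of autophagy moved gene by gene. Of 22 genes of MTORC1 and AMPK, the kinases that hold autophagy back and start it, 3 rose and 3 fell on MCD and 3 rose and 0 fell on chow in the authors' deposited tables, with medians of 0.083 and 0.046. All genes tested gave 14.7% higher and 16.2% lower on MCD, and 5.58% and 6.46% on chow. On MCD Deptor, an MTOR inhibitor, rose by 0.62 ± 0.104 (5965 normalized counts with anti-ACBP against 3878 with IgG), the AMPK catalytic subunit Prkaa2 by 0.59 ± 0.110, and Tsc2, which restrains MTORC1, by 0.37 ± 0.0906. Rragd, a lysosomal GTPase that recruits MTORC1, had 82.0 normalized counts with anti-ACBP against 220 with IgG, a log2 fold change of -1.42 ± 0.192 (DESeq2 adjusted p = 5.65e-12). The leucine sensor Sesn2 stood at -0.78 ± 0.252 and the AMPK subunit Prkab2 at -0.62 ± 0.158. On chow Prkaa2 rose by 0.56 ± 0.113, Rragc by 0.39 ± 0.0819 and Mtor by 0.28 ± 0.0976. Prkaa2, like Bnip3, thus rose on both diets, with a difference of 0.031 ± 0.157 (adjusted p = 0.917).

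Of 11 other transcriptional regulators 3 rose and 1 fell on MCD, where 14.7% of all genes tested were called higher and 16.2% lower. Foxo1, which drives autophagy genes in fasting, rose by 0.58 ± 0.166, the unfolded protein response factor Xbp1 by 0.42 ± 0.147 and the bile acid receptor gene Nr1h4 by 0.40 ± 0.0918, and the TFEB relative Mitf stood at -0.71 ± 0.125 (DESeq2 adjusted p = 2.48e-07). On chow Nr1h4 alone was called, at 0.39 ± 0.0968. Nfe2l2, which encodes NRF2, a known activator of Sqstm1, was called on neither diet, at -0.20 ± 0.120 on MCD and 0.081 ± 0.128 on chow. These genes were given as measured, and their relation to the members was not tested.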
